A study of Mus musculus with 32 samples.

Results

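The proteasome genes described here are those whose symbol on the array starts with Psma to Psmg followed by a number. In mouse liver, 49 genes met this rule among 22180 genes measured with a probe set of a single symbol. The brightest probe set by mean over all arrays was taken for each gene, and 3 members, Psma5, Psmc2 and Psmg2, had more than 1. By their known roles, 47 of the 49 are proteasome parts or assembly factors. The other 2 only share the letters: Psmc3ip is a partner of the meiotic recombination machinery, and Psme3ip1 is a nuclear protein that binds the activator Psme3.

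Each of 32 arrays held liver RNA of 1 male C57BL/6NTac mouse, wild type and 14 weeks old, fasted for 10 h before gavage. The groups were 9 palm oil clamped, 9 palm oil basal, 7 control clamped and 7 control basal mice. Palm oil was given at 2 g/kg, and controls received water. Basal livers were taken 6 h after gavage under isoflurane. Clamped mice carried a jugular vein catheter placed 6 to 7 days earlier under ketamine and xylazine. They received a glucose tracer for 110 min and then insulin at 15 pmol/kg/min, with blood glucose held at a target, and were killed with ketamine and xylazine. Clamped and basal mice thus differed in insulin, the tracer infusion, the earlier surgery, the anaesthetic and any difference in time of collection. The effects of these cannot be told apart in any clamped against basal comparison. The labels also number the animals, from 15 to 32 in clamped and from 33 to 52 in basal mice. Animal number therefore cannot be told apart from the clamp either. Values are log2 expression values, on which a difference of 1 is a 2-fold difference in signal.

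The proteasome is the protease that degrades proteins tagged with ubiquitin. Its 20S core is a barrel of alpha and beta rings, in which the beta subunits Psmb5, Psmb6 and Psmb7 cut the substrate. The 19S regulatory particle caps the barrel: its ATPases unfold the substrate, its lid removes the ubiquitin chain, and chaperones guide the assembly of both. Interferon induces alternative catalytic subunits, Psmb8, Psmb9 and Psmb10, which replace the constitutive ones and change the peptides made for display to T cells, and Psme1 and Psme2 form an activator that opens the core. When proteasome activity is short, the transcription factor Nfe2l1 raises the genes of the whole complex together through antioxidant response elements.

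The stretches upstream of Psmb9 and Psmc6 are shown because these were the members that passed the test in palm oil mice under the clamp. They come from RefSeq (GRCm38.p6) and end at the start of transcription. Psmb9 lies on chromosome 17 at 34182030 to 34187330 on the minus strand. Its neighbour Tap1, which encodes part of the transporter that carries peptides to MHC class I, lies at 34187556 to 34197225 on the plus strand, so that 225 bases separate the start sites of this divergent pair. The Psmb9 stretch, chr17:34187331-34187580 on the minus strand, spans that gap and ends near the reverse complement of a CCAAT box, in capitals.
Psmb9: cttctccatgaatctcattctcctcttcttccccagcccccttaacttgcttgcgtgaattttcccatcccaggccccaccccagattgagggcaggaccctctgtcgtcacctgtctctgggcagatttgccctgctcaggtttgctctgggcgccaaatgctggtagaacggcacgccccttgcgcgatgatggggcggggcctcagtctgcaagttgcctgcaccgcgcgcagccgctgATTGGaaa
Psmc6, an ATPase of the 19S base, lies on chromosome 14 at 45329823 to 45349074. Its stretch, chr14:45329574-45329823 on the plus strand, holds a reverse-strand match to the antioxidant response element core TGACNNNGC, in capitals.
Psmc6: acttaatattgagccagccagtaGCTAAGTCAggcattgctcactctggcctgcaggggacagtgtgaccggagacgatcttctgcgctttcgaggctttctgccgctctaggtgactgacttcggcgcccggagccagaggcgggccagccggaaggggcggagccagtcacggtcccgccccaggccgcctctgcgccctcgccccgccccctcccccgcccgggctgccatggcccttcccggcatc

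Promoters of 41 of the 49 members were in the table, each from 250 bases before the start to just past it. On either strand TGACNNNGC occurred in 6 of them (14.6%: Psmb5, Psmb6, Psmc6, Psmd9, Psmd12 and Psme4), against 14.0% of 27025 genes. CCAAT occurred in 16 of 41, against 41.1% of all genes. A heat shock element occurred in 0, against 0.662%. An interferon-type element, a tandem of GAAA units, occurred in 5 (12.2%: Psmb3, Psmd4, Psmd9, Psme1 and Psmg4), against 3.99% of all genes. These are matches of letters in a window and describe no binding.

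Most members were bright. Over the 44 members that averaged 3 log2 or more, the median lay between 7.08 and 7.71 log2 on every array. The array median over the whole table, dim probe sets included, was 1.65 to 1.77. There were 5 probe sets that averaged below 3 log2 and are called dim here, a limit set after the values were seen. They were those of Psma8, the testis form of an alpha subunit, Psmb11, the thymus form of a catalytic subunit, Psmc3ip, and of Psma5 and Psmb3, which are parts of every 20S core. Differences of these 5 probe sets are compressed toward the background.

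The basal arrays were not alike. The 7 of animals numbered 44 or higher, 3 palm oil and 4 control, spread less over the table: their interquartile ranges were 2.44 to 2.54. The 9 remaining basal arrays had 2.72 to 2.96, and clamped arrays 2.64 to 2.85. The labels do not say what the animal number stands for. Pancreatic acinar markers (10 of 12 measured) averaged over 6 log2 in 2 palm oil clamped, 5 palm oil basal, 1 control clamped and 4 control basal arrays. Hepatocyte markers (6 of 6 measured) averaged 9.76 to 10.49 log2 on every array. The 2 most alike arrays of a group correlated at 0.989 over 22180 genes and shared 27 identical values, so that none was a copy of another.

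Few proteasome genes passed the test under the clamp, in either gavage. In palm oil mice 1 of the 49 members rose, Psmc6, and 1 fell, Psmb9 (limma on all genes, Benjamini-Hochberg adjusted p under 0.05). Of all 22180 genes, 3.76% rose and 3.80% fell in that comparison, 7.57% in all. In control mice 0 members rose and 1 fell, Psmf1, while 4.66% of all genes rose and 4.09% fell, 8.75% in all. The median difference of the members was 0.01 in palm oil mice and 0.03 in control mice, and over all genes it was -0.02 in both. At an unadjusted p under 0.05 there were 5 members of 49 in palm oil mice, against 18.6% of all genes, and 8 of 49 in control mice, against 20.9% of all genes.

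**Figure D1:**
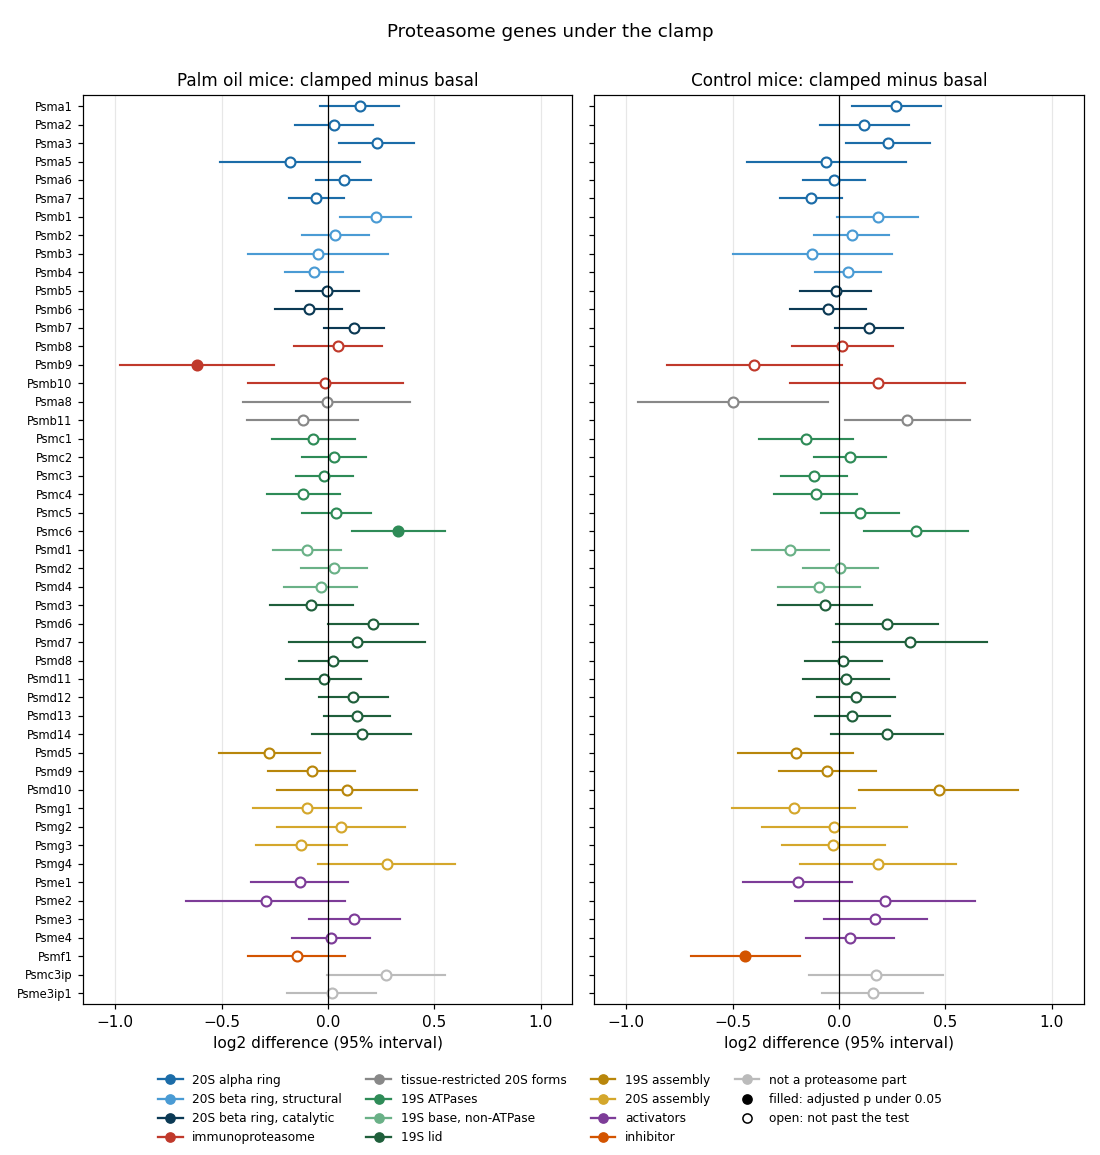
Log2 difference, clamped minus basal, of the 49 members in palm oil mice (left) and control mice (right), ordered and coloured by role. Points are limma estimates from 32 arrays and lines their 95% intervals, and filled points passed an adjusted p of 0.05: Psmb9 and Psmc6 on the left and Psmf1 on the right. The other points lie around 0, with wider intervals for dim probe sets.

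None of the constitutive catalytic subunits passed the test under the clamp. Psmb5, which carries the chymotrypsin-like site, had a lowest, median and highest value of 9.26, 9.36 and 9.65 log2 in palm oil clamped mice, against 9.15, 9.43 and 9.56 in palm oil basal mice. The groups overlapped almost wholly, and the difference was 0.00 with a fold of 0.998 (95% interval 0.901 to 1.11). In control mice Psmb5 ran from 9.24 to 9.61 clamped and from 9.26 to 9.58 basal, a fold of 0.989 (0.881 to 1.11). Psmb6, the caspase-like site, differed by -0.09 ± 0.08 (SE) in palm oil and by -0.05 ± 0.09 in control mice. Psmb7, the trypsin-like site, differed by 0.12 ± 0.07 and 0.14 ± 0.08, with adjusted p 0.364 and 0.321 in palm oil and control mice.

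Of the 3 immunoproteasome subunits, Psmb9 fell in palm oil mice, and 0 passed in control mice. Psmb9 had a lowest, median and highest value of 6.42, 7.04 and 7.38 log2 in palm oil clamped mice, against 6.98, 7.60 and 8.06 in palm oil basal mice. The ranges overlapped, with the clamped mice at the lower end. Psmb9 fell by 0.62 ± 0.18 on the log2 scale, a fold of 0.653 (95% interval 0.508 to 0.838, adjusted p = 0.0258). In control mice it had 6.502, 6.721 and 8.108 in clamped against 7.18, 7.41 and 7.61 in basal mice. In all, 5 of the 7 control clamped mice lay below all control basal mice, and replicates 6 and 7 lay high, at 7.605 and 8.108. The difference was -0.40 ± 0.20 (adjusted p = 0.258).

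Psmb8 differed by 0.05 in palm oil mice (95% interval -0.16 to 0.26) and by 0.02 in control mice (-0.22 to 0.25). Psmb10 differed by -0.01 (-0.38 to 0.35) and 0.18 (-0.23 to 0.59). Its control clamped values ran from 6.62 to 7.17 in 6 mice and reached 8.485 in replicate 7, the mouse that was also highest for Psmb8 and Psmb9. Kupffer markers averaged 5.92 and 5.51 log2 in control clamped replicates 6 and 7, within the group's range of 5.39 to 6.25. Neutrophil markers averaged 3.08 and 3.48 in the same mice, within 2.62 to 3.49, with replicate 7 near the top. T and NK cell markers averaged 1.35 and 1.51 there, within 1.35 to 1.62.

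The fall of Psmb9 in palm oil mice was sensitive to single arrays. Without palm oil basal replicate 3, 5, 7 or 8 or palm oil clamped replicate 6 the difference was -0.58, -0.56, -0.57, -0.57 and -0.55, with adjusted p of 0.0502, 0.0546, 0.0554, 0.0558 and 0.0639. In control mice Psmb9 passed the test without control clamped replicate 7 (-0.58, adjusted p = 0.0415). Without the 7 basal arrays of animals 44 or higher the palm oil difference was -0.58 with adjusted p = 0.105, and without arrays over 6 in acinar markers it was -0.49 with adjusted p = 0.399. Both settings have fewer arrays. With acinar marker level in the fit it was -0.60 (adjusted p = 0.0648). With the split of basal arrays at animal 44 as a term it was -0.59 (adjusted p = 0.0579). That term is the same for all clamped arrays, so that it cannot adjust the clamp comparison for animal number.

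Markers of other liver cells moved in the same comparison, in a bulk sample in which fewer cells of a type and less RNA per cell cannot be told apart. Of the neutrophil markers, 5 of 9 rose in palm oil and 5 of 9 in control mice. Their mean level ran from 2.79 to 3.38 log2 in palm oil clamped mice, against 1.73 to 2.16 in palm oil basal mice. Kupffer markers rose for 3 of 8 in palm oil and 4 of 8 in control mice. Hepatocyte markers rose for 2 of 6 in each, with median differences of 0.20 and 0.25. Their mean level ran from 10.22 to 10.49 log2 in clamped arrays, from 9.76 to 10.14 in basal arrays of animals 44 or higher and from 10.11 to 10.32 in the other 9 basal arrays. Of 6 endothelial markers 1 rose and 1 fell in each comparison, of 4 cholangiocyte markers 1 rose in each, and of 4 stellate markers 1 fell in palm oil mice and 0 passed in control mice. All 10 acinar markers were lower, with median differences of -2.99 in palm oil and -3.45 in control mice. All 10 had an unadjusted p under 0.05 in both comparisons, and 0 passed after adjustment. B cell markers fell for 2 of 3 in palm oil mice, at mean levels of 0.88 to 1.499 clamped and 1.27 to 1.91 basal, and all T and NK cell, B cell and dendritic cell markers averaged below 3 log2 in each group. The part of these cells in the Psmb9 values was not tested.

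Tap1, across the divergent promoter, was the only one of 8 measured genes of antigen processing and interferon response that passed the test in palm oil mice. It had a lowest, median and highest value of 3.43, 4.72 and 5.24 log2 in palm oil clamped mice, against 4.81, 5.33 and 5.57 in palm oil basal mice. It fell by 0.67 on the log2 scale (adjusted p = 0.0254), and lost the call without palm oil clamped replicate 2, 5 or 6, with differences of -0.61, -0.62 and -0.52 (adjusted p 0.0517, 0.0517 and 0.0647). Without the 7 basal arrays of animals 44 or higher it was -0.70 (adjusted p = 0.0815), without arrays over 6 in acinar markers -0.65 (adjusted p = 0.338), and with acinar marker level in the fit -0.65 (adjusted p = 0.0622). In control mice its difference was -0.34 (adjusted p = 0.408). The other genes of that list did not pass: Irf1, an interferon-responsive transcription factor, differed by 0.08 in palm oil and 0.48 in control mice, and B2m, the light chain of MHC class I, by 0.05 and 0.02.

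**Figure D2:**
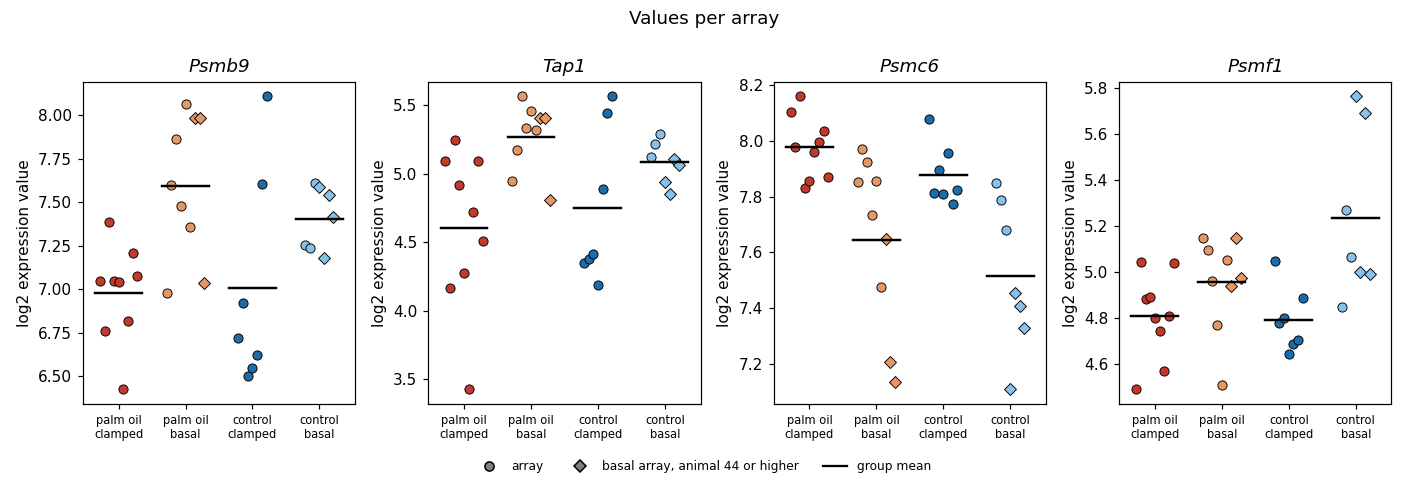
Log2 value per array of Psmb9, Tap1, Psmc6 and Psmf1 in the 4 groups, with bars at group means and diamonds for basal arrays of animals 44 or higher. Psmb9 and Tap1 are low in most clamped mice of both gavages, Psmc6 is lowest in the diamonds, and 2 diamonds carry the highest Psmf1 values of control basal mice.

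Psmb9 and Tap1 varied together from mouse to mouse beyond the groups. After each group's mean was subtracted, Pearson's r was 0.77 and Spearman's rho 0.74 over 32 mice. In 100000 permutations within groups both p were 1e-05, the smallest they can give, and 0.00012 adjusted over the 12 genes set against Psmb9. Without the 2 mice farthest from the median of Psmb9 after that subtraction, r was 0.73. It was 0.81 in the 16 clamped arrays, 0.94 in the 7 basal arrays of animals 44 or higher and 0.84 in the other 9 basal arrays. For these parts, here and below, the mean of each group within the part was subtracted instead.

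The relation of Psmb9 to Psmb10 had r of 0.65 and rho of 0.51 (permutation p = 0.00018 and 0.0024, adjusted 0.00108 and 0.0144), and 0.51 without the 2 farthest mice. It was 0.82 in clamped arrays but -0.15 in the other 9 basal arrays, so that it did not hold in every part. With Psmb8 r was 0.52 and rho 0.43 (adjusted permutation p 0.0265 and 0.0556).

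Other genes of antigen processing were also related to Psmb9. Tapbp, which links the peptide transporter to MHC class I, had r of 0.54 and rho of 0.42 (adjusted permutation p 0.0259 and 0.0385), and 0.32 without the 2 farthest mice. H2-K1, a heavy chain of MHC class I, had 0.42 and 0.48 (adjusted permutation p 0.0265 and 0.0253), and 0.46 without them. Tap2, the partner of Tap1, is a dim probe set and had 0.48 and 0.37 (adjusted permutation p 0.0268 and 0.104), and 0.36 without them. The transcription factors had r of 0.05 for Irf1 and 0.16 for Nlrc5 over all mice (adjusted permutation p 0.801 and 0.610). They differed between parts: Irf1 had 0.03 in clamped arrays, -0.17 in basal arrays of animals 44 or higher and 0.78 in the other 9 basal arrays, and Nlrc5 had 0.27, 0.09 and 0.46. The remaining 4 genes, B2m, Erap1, Psme1 and Psme2, had r of -0.13 to 0.29 over all mice. These also differed between parts. In basal arrays of animals 44 or higher r was -0.89, -0.81, 0.74 and 0.27 in that order. In the other 9 basal arrays it was 0.26, 0.19, 0.40 and 0.14, and in clamped arrays -0.12, -0.02, 0.28 and -0.42. All genes set against Psmb9 share its RNA extract and array in each mouse. Psmb9 and Tap1 have separate probe sets.

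**Figure D3:**
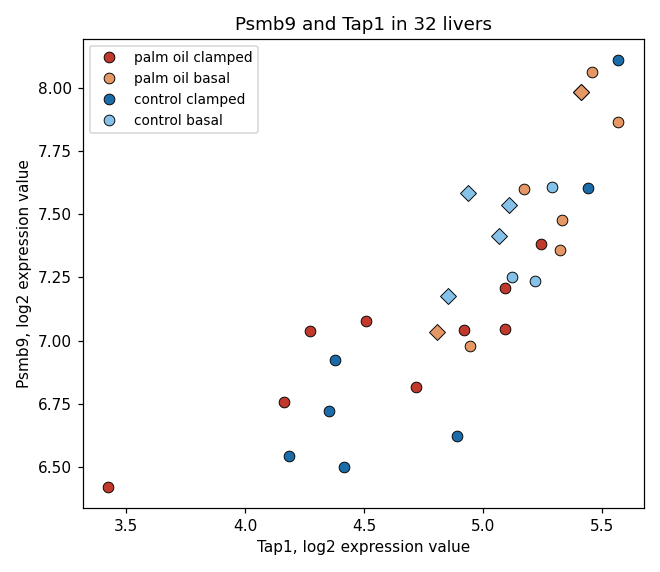
Log2 value of Psmb9 against Tap1 for each of 32 mice, coloured by group, with diamonds for basal arrays of animals 44 or higher. Low and high values of both genes fall in the same mice, and the 2 control clamped mice at the upper right are replicates 6 and 7.

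The alpha ring and the structural beta subunits form the scaffold and gate of the core. In the 20S core as a whole, 0 of 18 measured members rose and 1 (Psmb9) fell in palm oil mice, and 0 rose and 0 fell in control mice. Over these members, the median difference was 0.00 and 0.03. Differences of the alpha ring (6 of 7 measured) ran from -0.18 to 0.23 in palm oil and from -0.13 to 0.27 in control mice, and those of the structural beta ring from -0.07 to 0.22 and from -0.12 to 0.18. Psma4 was not analysed here, since its probe sets carry 2 symbols.

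In the 19S particle, 1 of 17 members rose and 0 fell in palm oil mice, and 0 rose and 0 fell in control mice, with median differences of 0.03 in both. Psmc6 had a lowest, median and highest value of 7.83, 7.98 and 8.16 log2 in palm oil clamped mice, against 7.14, 7.74 and 7.97 in palm oil basal mice. The ranges overlapped, with the lowest clamped mouse above the basal median. Psmc6 was higher by 0.33 ± 0.11 under the clamp, a 1.26-fold difference (95% interval 1.08 to 1.46, adjusted p = 0.0490). In control mice it had 7.77, 7.82 and 8.08 clamped against 7.11, 7.45 and 7.85 basal. That difference was of like size, 0.36 ± 0.12 or 1.28-fold (1.08 to 1.52), with adjusted p = 0.0554.

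The Psmc6 call sat at the threshold and moved with the basal arrays. It held in 8 of 32 fits that left out 1 array, with differences of 0.27 to 0.37 and adjusted p of 0.0270 to 0.119. The lowest difference came without palm oil basal replicate 9. In basal mice the 7 arrays of animals 44 or higher ran from 7.11 to 7.65, against 7.47 to 7.97 in the other 9. Without those 7 arrays the clamp difference of Psmc6 was 0.18 in palm oil (adjusted p = 0.254) and 0.11 in control mice (adjusted p = 0.682), so that 0 of the 49 members passed in either comparison. Without arrays over 6 in acinar markers it was 0.12 in palm oil mice (adjusted p = 0.732) and 0.46 in control mice (adjusted p = 0.0359).

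The other ATPases, Psmc1 to Psmc5, differed by -0.12 to 0.04 in palm oil mice and by -0.16 to 0.10 in control mice. Of the base subunits, which form the scaffold and recognise ubiquitin, Psmd1 differed by -0.10 and -0.23, with adjusted p of 0.577 and 0.113. The 8 lid subunits had median differences of 0.13 in palm oil and 0.07 in control mice, and 0 passed. Psmd14, the enzyme that removes the ubiquitin chain, differed by 0.16 and 0.23, and its partner Psmd7 by 0.14 and 0.33, with adjusted p of 0.514 and 0.332 for Psmd14 and 0.733 and 0.291 for Psmd7.

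Of the assembly factors, 0 of 7 rose and 0 fell in either comparison. Psmd5, Psmd9 and Psmd10 are chaperones of the 19S base. Psmd5 differed by -0.27 in palm oil and -0.20 in control mice (adjusted p = 0.178 and 0.421), and Psmd9 by -0.08 and -0.05. Psmd10, also known as gankyrin, had 5.61, 5.78 and 6.14 log2 as lowest, median and highest value in palm oil clamped against 5.08, 5.75 and 6.09 in palm oil basal mice. It had 5.39, 5.88 and 6.82 in control clamped against 4.79, 5.64 and 6.07 in control basal mice. Both pairs overlapped, and the differences were 0.09 (adjusted p = 0.847) and 0.47 (adjusted p = 0.116). Without control basal replicate 3 the control difference was 0.57 with adjusted p = 0.0443.

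Psmg1 to Psmg4 are chaperones that assemble the alpha ring. Their differences in palm oil mice were -0.10, 0.06, -0.12 and 0.28, and in control mice -0.21, -0.02, -0.03 and 0.18. No adjusted p was below 0.378 in palm oil or 0.431 in control mice.

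Of the activators and the inhibitor, 0 of 5 rose and 0 fell in palm oil mice, while in control mice 0 rose and 1 fell. That gene was Psmf1, known as PI31, which binds the core and inhibits it in vitro. Psmf1 had a lowest, median and highest value of 4.49, 4.81 and 5.05 log2 in palm oil clamped against 4.51, 4.97 and 5.15 in palm oil basal mice. It had 4.64, 4.78 and 5.05 in control clamped against 4.85, 5.07 and 5.76 in control basal mice. The palm oil difference was -0.15 ± 0.11 (adjusted p = 0.548). In control mice Psmf1 fell by 0.44 ± 0.13 on the log2 scale, a fold of 0.737 (95% interval 0.617 to 0.881, adjusted p = 0.0223).

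A pair of mice set much of that value. Control basal replicates 4 and 6 read 5.765 and 5.691, and the other 5 control basal mice 4.849 to 5.273. Without replicate 4 the difference was -0.35 (adjusted p = 0.0737), and without replicate 6 it was -0.36 (adjusted p = 0.0706). Both are among the basal arrays of animals 44 or higher, without which it was -0.27 (adjusted p = 0.338). The test of the difference between palm oil and control mice gave 0.29 for Psmf1 (95% interval -0.05 to 0.64, limma adjusted p = 1.00), so that the 2 differences were not shown to differ.

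Psme1 and Psme2, which form the interferon-inducible activator ring, differed by -0.13 and -0.29 in palm oil mice and by -0.19 and 0.22 in control mice. Psme3, the nuclear activator, differed by 0.12 and 0.17 in palm oil and control mice, and Psme4, the large activator PA200, by 0.01 and 0.05. Of the symbols that are not proteasome parts, Psmc3ip differed by 0.27 and 0.18 and Psme3ip1 by 0.02 and 0.16. None of these 6 passed in either comparison.

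The intervals bound how far the members could have moved. Of the 44 members that were not dim, the 95% interval lay within 1.5-fold in both directions for 41 in palm oil mice (93.2%) and 37 in control mice (84.1%). Among 2013 genes with means of 6.11 to 8.32 log2, the lower and upper quartiles of these members, the shares were 77.6% and 66.6%. The 44 members themselves span a wider range, from 4.15 to 9.53 log2, so that the 2 sets are not matched in brightness. The 3 outside in palm oil mice were Psmb9, Psmg4 and Psme2. The 7 outside in control mice were Psmb9, Psmb10, Psmc6, Psmd7, Psmd10, Psme2 and Psmf1. The residual SD between mice of a group had a median of 0.18 over the 44 members and 0.22 over the 2013 genes, so that the members' intervals were also somewhat narrower.

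Palm oil gavage changed no proteasome gene past the test. Palm oil minus control called 0 of 49 members in clamped and 0 of 49 in basal mice by limma, where 0% of all 22180 genes were called in each, and an exact rank sum test also called 0. At an unadjusted p under 0.05 there were 0 members in clamped mice, against 3.52% of all genes, and 1 in basal mice, against 5.11%. The median difference was 0.01 in clamped and -0.01 in basal mice, against 0.00 over all genes in both. The members' intervals lay within 1.5-fold for 43 of 44 in clamped mice (97.7%, the exception being Psme2) and for 42 of 44 in basal mice (95.5%, the exceptions being Psmd10 and Psme2). Among the 2013 genes with means between the members' quartiles these shares were 91.4% and 92.8%.

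**Figure D4:**
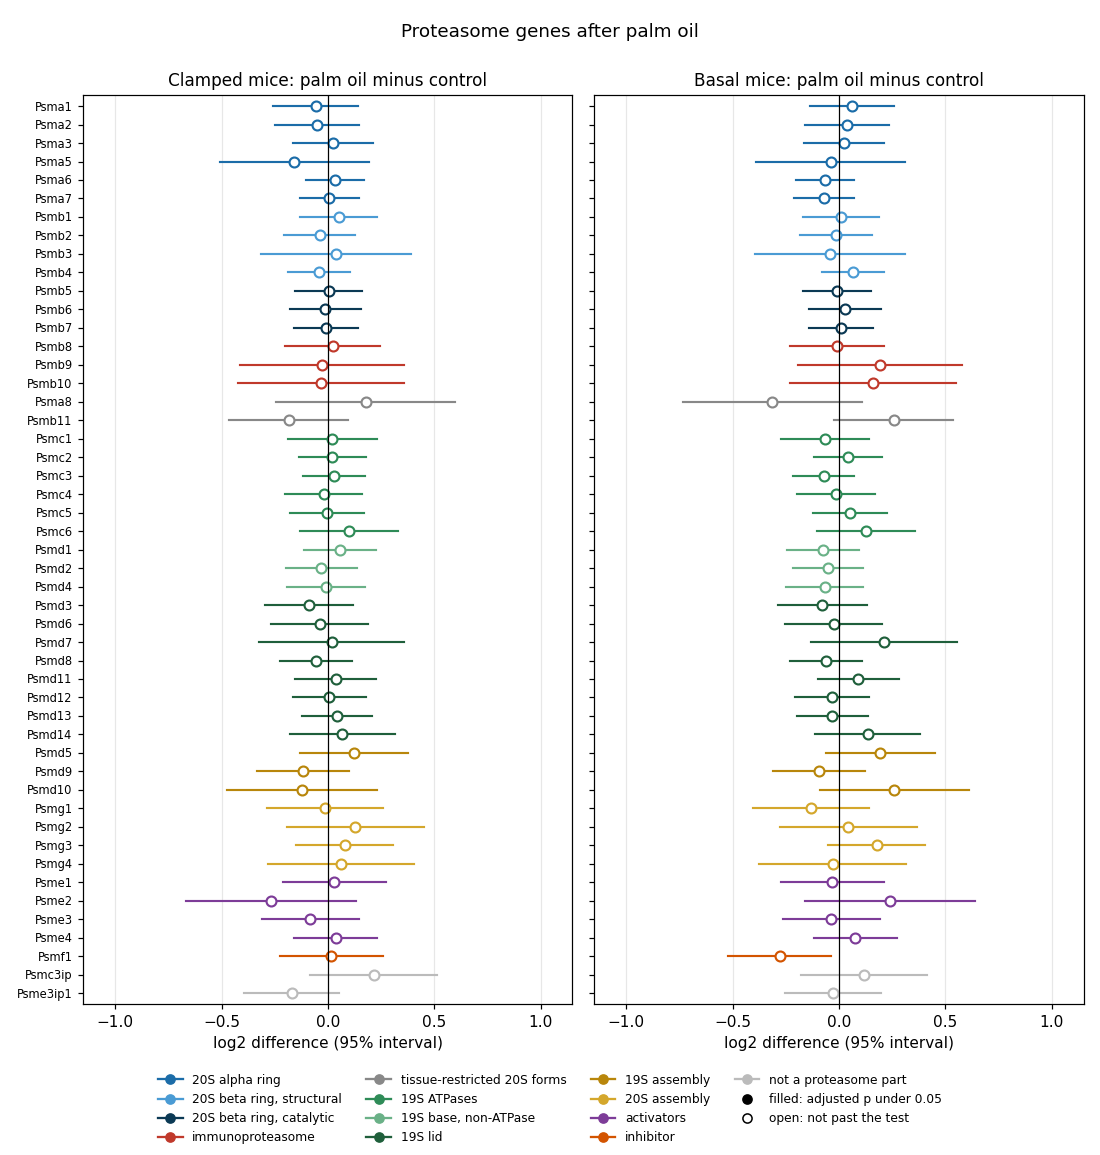
Log2 difference, palm oil minus control, of the 49 members in clamped mice (left) and basal mice (right), ordered and coloured by role. Points are limma estimates and lines 95% intervals. All points are open, since no adjusted p was below 0.05, and they lie around 0 on both sides.

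The smallest p in clamped mice belonged to Psme3ip1, Psmc3ip and Psme2. Psme3ip1 differed by -0.17 (95% interval -0.39 to 0.05, adjusted p = 1.00), Psmc3ip by 0.21 (-0.08 to 0.51) and Psme2 by -0.27 (-0.67 to 0.13). In basal mice the smallest belonged to Psmf1, Psmb11 and Psmg3. Psmf1 differed by -0.28 (-0.52 to -0.04, adjusted p = 0.960), Psmb11 by 0.26 (-0.02 to 0.53) and Psmg3 by 0.18 (-0.05 to 0.41). The basal Psmf1 value shares control basal replicates 4 and 6 with the clamp difference of control mice.

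No catalytic subunit passed the palm oil test in either state. Psmb5, Psmb6 and Psmb7 differed by 0.00, -0.01 and -0.01 in clamped mice and by -0.01, 0.03 and 0.01 in basal mice. Psmb8, Psmb9 and Psmb10 differed by 0.02, -0.03 and -0.03 in clamped mice and by -0.01, 0.19 and 0.16 in basal mice. The Psmb9 intervals, -0.41 to 0.36 and -0.19 to 0.58, were the widest of these with that of Psmb10.

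Whether palm oil altered the response to the clamp was asked by the interaction, the palm oil effect in clamped minus that in basal mice. It called 0 of 49 members and 0% of all genes by limma, and 1 member had an unadjusted p under 0.05, against 3.49% of all genes. The smallest p belonged to Psmb11, a dim probe set (-0.44, 95% interval -0.83 to -0.05), Psme2 (-0.51, -1.07 to 0.06) and Psmf1, given above. For Psmb9 the interaction was -0.22 (-0.76 to 0.33) and for Psmc6 -0.03 (-0.36 to 0.30). The interval lay within 1.5-fold for 38 of the 44 members (86.4%), against 77.8% of the genes with means between the members' quartiles. The falls of Psmb9 in palm oil mice and of Psmf1 in control mice were thus not shown to be particular to one gavage.

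Within basal mice the members followed the array split by animal number about as the other genes did. The 7 arrays of animals 44 or higher lay lower than the other 9 basal arrays for 34 of the 44 members that were not dim (77.3%), against 70.8% of 8420 genes that were not dim. Their median difference was -0.12, against -0.13 over those genes. Of these 44 members, 3 had ranges that did not overlap (6.82%), all lower, against 3.82% of the genes that were not dim. Over all 22180 genes, dim ones included, 1.66% did not overlap, 1.34% lower and 0.320% higher. Both sets hold palm oil and control mice, and these values are a description of arrays, with no test.

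Psmd7 ran from 6.41 to 6.96 log2 in the 7 arrays, against 7.21 to 7.64 in the other 9, a difference of -0.78. Psmd14 ran from 5.11 to 5.52, against 5.61 to 6.10, a difference of -0.49. Psme4 ran from 6.49 to 6.90, against 7.03 to 7.18, a difference of -0.37. Clamped arrays ran from 6.96 to 7.59 for Psmd7, 5.55 to 6.21 for Psmd14 and 6.80 to 7.15 for Psme4. Psmb5 did not follow: it ran from 9.30 to 9.51 in the 7 arrays, against 9.15 to 9.58 in the other 9.

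**Figure D5:**
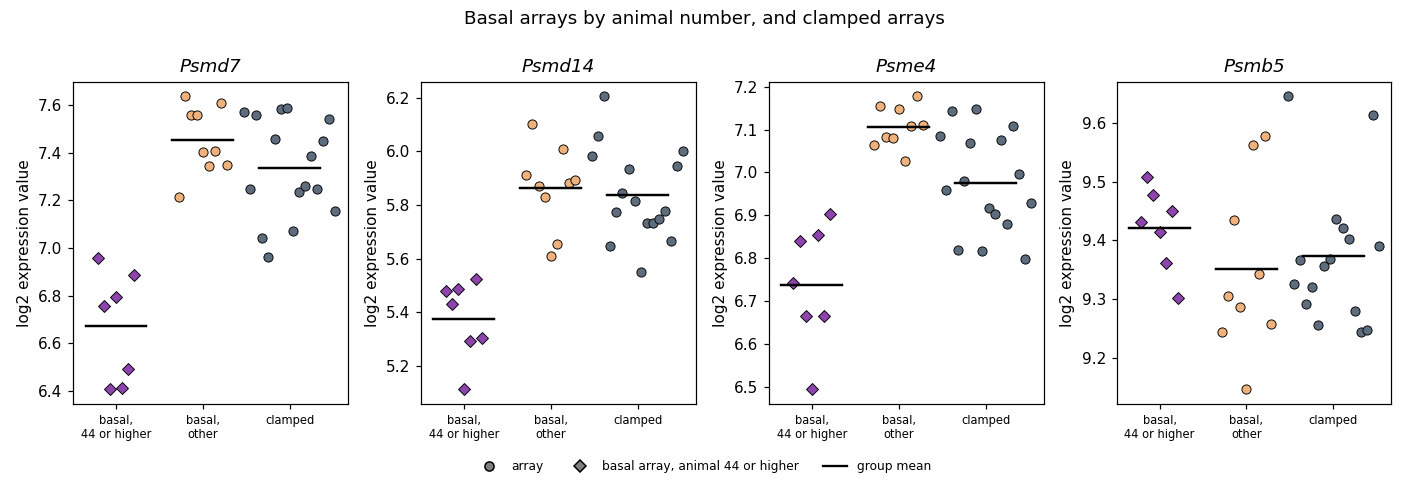
Log2 value per array of Psmd7, Psmd14, Psme4 and Psmb5 in basal arrays of animals 44 or higher, other basal arrays and clamped arrays, with bars at the means. The first 3 genes are separated between the basal sets, and Psmb5 overlaps.

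Genes that serve the proteasome but lie outside the symbol rule also did not pass. Of 29 listed, 18 were measured, and 0 rose or fell in any of the 5 comparisons. At an unadjusted p under 0.05 there were 2 of 18 in the clamp comparison of palm oil mice, against 18.6% of all genes. In that of control mice there were 4 of 18, against 20.9% of all genes. Their median clamp difference was 0.06 in palm oil and 0.08 in control mice. Nfe2l1, the regulator of proteasome genes, had 6.13, 6.29 and 6.55 log2 as lowest, median and highest value in palm oil clamped against 6.28, 6.55 and 6.74 in palm oil basal mice. The ranges overlapped, and the difference was -0.22 (95% interval -0.38 to -0.06, adjusted p = 0.0976). In control mice it was -0.06 (adjusted p = 0.784).

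Nfe2l2, the oxidative stress factor that can also raise proteasome genes, differed by 0.10 in palm oil and 0.12 in control mice under the clamp. Pomp, the maturation factor of the 20S core, differed by 0.24 (adjusted p = 0.339) and 0.37 (adjusted p = 0.131), and Sem1, the small lid subunit, by 0.02 and 0.08. In palm oil minus control, Nfe2l2 differed by 0.18 in clamped and 0.21 in basal mice, and neither passed. Adrm1, a ubiquitin receptor of the 19S particle, was not analysed here.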

How the data were processed

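Liver RNA of 32 mice was measured on Affymetrix arrays, 1 mouse per array, after miRNeasy extraction and whole-transcript amplification, per the labels' protocols. Per the submitters' processing notes, the authors computed the deposited log2 values by RMA (Affymetrix Expression Console, version 1.3.0.187), a method that removes background, equalises arrays and compresses low values. The values were used as deposited, and no scanner files were used. A platform annotation paired 23521 of 41345 probe sets with 1 symbol.

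Groups came from the titles. All 22180 genes were fitted in R 4.3.3 with limma 3.58.1, using lmFit and eBayes. The fit had a mean for each group over the 32 arrays, with 28 residual degrees of freedom. P-values were adjusted by Benjamini-Hochberg over all genes of a comparison. Every adjusted p of a gene in the text is limma's unless another test is named. Values after ± are standard errors, and intervals are at 95%. The functions were tested on simulated data, with changes planted in the palm oil clamp comparison in genes away from the background. Of planted changes, 12.8% passed at 1.25-fold, 67.2% at 1.5-fold and 94.8% at 2-fold. Most changes near 1.25-fold would thus go uncalled. The number of arrays limits the precision.

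Named were the members that passed in a clamp comparison, catalytic, assembly, activator and inhibitor genes, the 2 symbols that are no proteasome parts, and the 3 smallest p of each other comparison. Outside that rule, Psmd1, Psmd7 and Psmd14 and genes of the antigen list were named after their values were seen. The members, lists and tests were chosen with earlier results of these data known.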

Additional observations from a re-analysis of the deposited data

Results flagged for a closer look

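In each group the highest and lowest mouse of each member was set against the rest by its gap relative to the group's range (Dixon's test at 95%), and 10 of 196 tests stood out, where chance flags about 1 in 20. The causes were not tested.

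Among control clamped mice, Psmb10 was highest in replicate 7, at 8.485 log2 against 6.622 to 7.167 in the other 6, and that mouse was also highest for Psmb9. Replicate 6 was highest for the ATPase Psmc4, at 8.941 against 8.408 to 8.511, and for the lid subunit Psmd13, at 6.815 against 6.334 to 6.482. Replicate 4 was highest for Psma6, at 9.17 against 9.081 to 9.117, and replicate 1 for the dim Psmb11, at 2.201 against 1.193 to 1.468.

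Among palm oil clamped mice, replicate 1 was highest for Psmb5, at 9.646 against 9.255 to 9.437, and replicate 2 for the ubiquitin receptor Psmd4, at 8.366 against 8.013 to 8.189. Among palm oil basal mice, replicate 9 was lowest for Psmd10, at 5.083 against 5.591 to 6.089, and replicate 4 for Psmd9, at 6.049 against 6.378 to 6.71. Among control basal mice, replicate 2 was highest for Psme1, at 6.94 against 6.489 to 6.673.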

How the results depend on the processing

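The palm oil comparisons and the interaction called 0 members under every alternative run, and the members' median difference stayed within 1 SD between mice (0.15) of its value in each comparison and alternative, from -0.11 to 0.07. The differences of Psmb9, Psmc6, Psmf1 and Tap1 under the clamp kept their direction in every alternative, in both gavages. Differences of members that did not pass could change sign. That of Psmd10 in palm oil mice was 0.09 in the fit reported. It was -0.06 with the split of basal arrays by animal number as a term and -0.07 without arrays over 6 in acinar markers. Counts of called members under the clamp were small and moved. In palm oil mice, 2 in the fit reported, the count was 0 without the 7 basal arrays of animals 44 or higher, with that split as a term, with the acinar level as a term, without arrays over 6 in acinar markers and by an exact rank sum test, and 1 with array weights or the compared groups alone. In control mice, 1 in the fit reported, it was 0 without the 7 arrays and with the compared groups alone, 2 (Psmf1 and Psmc6) with the brighter genes alone, 1 median for all arrays and an intensity trend with robust prior, and 3 (Psmf1, Psmd1 and Psma7) after repeated quantile normalization. Psmf1 was lost and others were called with the split as a term (2, Psmd1 and Psmc1), by the exact rank sum test (2, Psma3 and Psmd1), with the acinar level as a term (1, Psmd1) and without arrays over 6 in acinar markers (1, Psmc6). Leaving out each array in turn gave 0 to 2 in palm oil and 0 to 3 in control mice.

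Summed over both clamp comparisons, the same alternatives gave 0 to 2 calls in the 20S core and in the 19S particle, 0 or 1 among activators and inhibitor, the immunoproteasome and related genes, and with 1 array left out 0 to 2, 0 to 2, 0 to 1, 0 to 2 (immunoproteasome) and 0 to 1 (assembly). Over the 13 alternatives other than leaving out an array, Psmb9 stayed past the threshold in palm oil mice in 8, Psmc6 in 6 and Tap1 in 10, and Psmf1 in control mice in 7, each with its direction kept. The replicate number as a block gave 2 calls in control mice (Psmf1 and Psmc6), and same-numbered mice are not paired: deviations of 30 such pairs correlated at -0.36 to 0.36, 8 over 0.1, and 3 mice correlated best with their own number. Some settings have fewer arrays, and the cause of a moved call was not tested in any setting. Values below 3 log2 lie near the background, which compresses differences there.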
